A study of Mus musculus with 12 samples.

Results

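The enzymes that write, copy and remove DNA methylation were followed by their transcripts in T cells exposed to an agonist of STING, the adaptor that senses cyclic dinucleotides. The 8 genes were chosen by name: Dnmt1, Uhrf1, Dnmt3a, Dnmt3b, Tet1, Tet2, Tet3 and Tdg. All 8 were found among the 38924 gene IDs counted, and 8 of 8 passed the filter on low counts, which left 13811 genes for testing.

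The data were 12 RNA sequencing libraries, 3 for each of 4 groups, from the spleens of C57BL/6 mice. WT T cells and T cells labelled as STING KO were each cultured with DMSO, the solvent, or with the cell-permeable agonist of mouse STING, CMA (10-carboxymethyl-9-acridanone), for 16 h. The methods name the second genotype STINGgt/gt (Goldenticket), a missense mutation of Tmem173 that leaves no functional STING, and this name is used here. The comparisons address what CMA did in each genotype, whether that effect differed between the genotypes, and how the genotypes differed under each treatment.

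In all 4 groups naive T cells had been sorted from spleen, labelled as CD4+, grown for 2 days under stimulation of CD3 and CD28 and left without antibodies for 1 day before treatment. The mice of the study were 8–12 weeks old. These are cells that had been activated in culture, and DMSO cultures of each genotype are the only controls. The replicates are called biological, but whether each came from a separate animal or culture is not given in the sources used here, so p-values measure the spread between these libraries. In such bulk samples, fewer cells of a type and less RNA per cell cannot be told apart.

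Methylation of cytosine in CpG dinucleotides is copied after replication by DNMT1, which UHRF1 brings to hemimethylated DNA, and it is laid down anew by DNMT3A and DNMT3B. TET1, TET2 and TET3 are dioxygenases that use 2-oxoglutarate to oxidise 5-methylcytosine. Thymine DNA glycosylase, encoded by Tdg, excises the further oxidised bases, which base excision repair then replaces with cytosine. In T cells DNMT1 and DNMT3A are known for keeping cytokine genes silent, and TET2 for promoting cytokine expression and stable Foxp3 expression.

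The libraries held between 27414450 and 43784910 reads on genes. The share of entries on no annotated feature was 4.86% to 5.47% in WT with DMSO and 6.79% to 7.16% in WT with CMA, against 5.98% to 6.54% in STINGgt/gt with DMSO and 6.02% to 6.33% with CMA, and its part in the CMA results was not tested. Cell viability in these cultures was not analysed here. WT DMSO replicates 2 and 3 stood furthest apart, by a chi-square of 29.9 per degree of freedom against 2.63 to 10.1 for the other pairs of replicates, so values without them are given beside the calls of named genes that they decide. Tmem173 was measured at 183 to 190 CPM (library-scaled counts, with TMM factors) in WT and 168 to 181 CPM in STINGgt/gt T cells with DMSO, and a missense mutation need not lower its mRNA, so this level does not test the genotype labels. The 10 T cell markers were all detected, with a summed level of 3408–3528 CPM in WT with DMSO, 3157–3196 CPM in WT with CMA and 3513–3616 CPM in STINGgt/gt. Markers of other cells were present too and differed between groups. The 7 B cell markers summed to 897–973 CPM in WT with DMSO, 1281–1406 CPM in WT with CMA, 450–468 CPM in STINGgt/gt with DMSO and 477–483 CPM in STINGgt/gt with CMA. The rise in WT with CMA lay mainly in Cd74, the MHC class II invariant chain (274 to 592 CPM), and not in Ighm (494 and 480 CPM). The sums of the 8 markers of CD8 and NK cells were 2091–2554, 1507–1601, 910–954 and 707–752 CPM in the same order. Most of these sums was Gzmb (2107, 1463, 858 and 649 CPM), a granzyme that activated CD4+ T cells can make too, while Cd8a had 22.8, 12.9, 5.43 and 5.48 CPM. The sums of the 8 myeloid markers were 48.9–53.9, 61.9–66.5, 36.6–38.8 and 35.0–39.9 CPM. Their rise in WT with CMA was that of Cst3 (38.6 to 55.7 CPM), whereas Lyz2 (3.25 to 1.16 CPM), Itgam (3.31 to 1.02) and Fcgr3 (1.03 to 0.539) fell. None of these markers was at 0 counts in all libraries.

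Of the promoters, 3 are shown, from a maintenance, a de novo and a TET gene, to show the CpG dinucleotides on which these enzymes act and the runs of letters searched for. They were picked after the search: Uhrf1 for the E2F-type letters, Dnmt3b for the NF-κB letters and Tet2 for its CpG count. The sequences are the 250 bases upstream of a start site in RefSeq for GRCm38.p6, printed on the strand of the gene. Capitals mark matches on either strand to the E2F-type letters TTTNNCGC and to the 10-base NF-κB consensus.
Uhrf1 (chr17:56304063-56304312, plus strand): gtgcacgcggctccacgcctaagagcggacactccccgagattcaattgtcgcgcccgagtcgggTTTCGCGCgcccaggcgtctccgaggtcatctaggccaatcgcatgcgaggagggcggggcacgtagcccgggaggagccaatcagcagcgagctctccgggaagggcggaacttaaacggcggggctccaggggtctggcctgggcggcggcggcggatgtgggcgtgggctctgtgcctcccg
Dnmt3b (chr2:153649199-153649448, plus strand): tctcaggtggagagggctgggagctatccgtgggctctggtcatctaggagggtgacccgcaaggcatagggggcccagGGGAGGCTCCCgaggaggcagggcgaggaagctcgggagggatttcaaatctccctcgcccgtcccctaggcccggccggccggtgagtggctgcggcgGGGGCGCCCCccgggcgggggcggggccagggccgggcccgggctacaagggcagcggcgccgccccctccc
Tet2 (chr3:133544391-133544640, minus strand): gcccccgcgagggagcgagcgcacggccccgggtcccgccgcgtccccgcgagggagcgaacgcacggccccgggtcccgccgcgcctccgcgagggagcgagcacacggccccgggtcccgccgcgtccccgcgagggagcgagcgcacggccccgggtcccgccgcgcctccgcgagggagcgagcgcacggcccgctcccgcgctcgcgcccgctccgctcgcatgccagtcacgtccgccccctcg

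The Tet2 window held 51 CpG dinucleotides, more than 99.9% of the 32841 windows in the table, whose median was 6. That of Uhrf1 held 30 and that of Dnmt3b 21, fewer than the 38 and 40 at the first Dnmt3a start sites, which are not shown. The E2F-type letters, found in 4.28% of all windows, occurred at both Uhrf1 start sites and, in 2 overlapping matches, at the Dnmt1 start site chr9:20952623, and in no other window of the 8 genes. The NF-κB consensus, found in 7.25% of all windows, had 3 matches at Dnmt3b, of which 2 overlap within the first run of capitals, and 1 at Tdg. The GC box GGGCGG, found in 32.7% of all windows, had 3 matches in each of the Uhrf1 and Dnmt3b windows shown, 5 at the first Dnmt3a start and 1 at each of Tet1, Tet2 and Tet3. The interferon-stimulated response element (2.98% of all windows) and the p53 half-site (7.13%) had no match in the windows of the 8 genes. Such matches describe letters and are not evidence of binding.

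In WT T cells CMA lowered the mRNA of Tet1, Dnmt3b and Dnmt1 and raised that of Tet2, while Uhrf1, Dnmt3a, Tet3 and Tdg did not pass the test. Tet1 was 3.52-fold and Dnmt3b 1.83-fold lower, Dnmt1 1.17-fold lower and Tet2 higher by 0.38 on the log2 scale (edgeR's quasi-likelihood test, adjusted p of 0.000183 or less for each, n = 3 libraries a group). Thus 1 gene rose and 3 fell among the 8, in a comparison in which CMA called 70.4% of all genes tested, 33.0% higher and 37.4% lower. The share of the 8 that was called is not above that background. The median log2 fold change was -0.04 over the 8 genes and -0.04 over all genes. In STINGgt/gt T cells none of the 8 passed the test, where 1.32% of all genes did, 0.398% higher and 0.920% lower. The WT groups of the 4 called genes did not overlap, which was so for 71.1% of all genes.

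**Figure D1:**
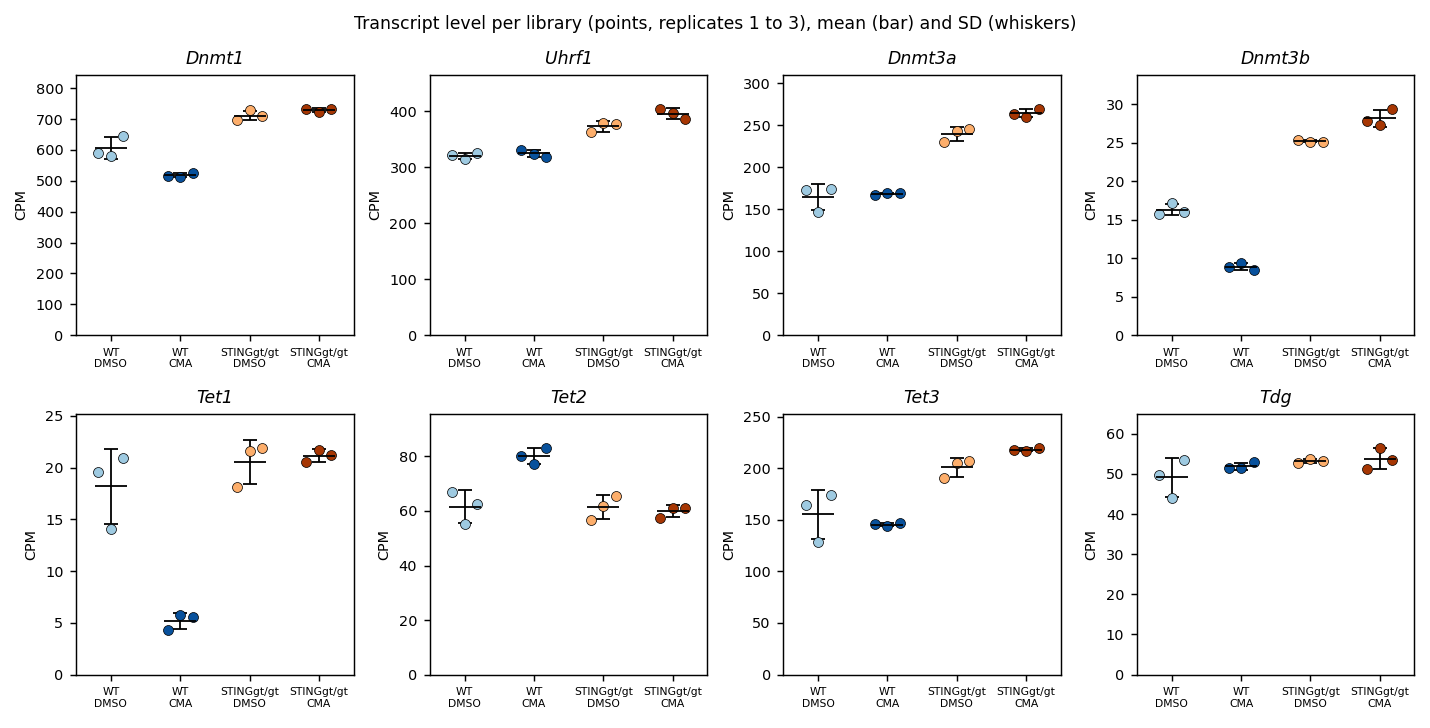
CPM (linear axis from 0) of the 8 genes in each library, by genotype and treatment; points are the 3 libraries of a group, the bar is their mean and the whiskers their SD. The 3 WT CMA libraries lie below all others for Tet1, Dnmt3b and Dnmt1 and above all others for Tet2.

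Dnmt1 (ENSMUSG00000004099, chr9:20907206-20959888, minus strand of GRCm38) encodes the maintenance methyltransferase. In WT T cells its level was 592, 580 and 647 CPM with DMSO and 517, 512 and 525 CPM with CMA. The STINGgt/gt libraries had 697, 728 and 710 CPM with DMSO and 734, 723 and 731 CPM with CMA. The WT CMA libraries were the lowest of the 12 and did not overlap with those of WT with DMSO, whereas the STINGgt/gt groups overlapped. CMA changed it on the log2 scale by -0.23 in WT (SE 0.0433, adjusted p = 0.000183, edgeR) and 0.04 in STINGgt/gt (adjusted p = 0.786, edgeR; 95% interval -0.06 to 0.13). The difference of these effects was -0.26 (adjusted p = 0.00147, edgeR).

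Uhrf1 (ENSMUSG00000001228, chr17:56303321-56323486, plus strand) encodes the reader of hemimethylated CpG that works with DNMT1. It stood at 321, 314 and 325 CPM in WT with DMSO and at 331, 325 and 319 CPM with CMA. The STINGgt/gt libraries had 362, 379 and 378 CPM with DMSO and 405, 397 and 386 CPM with CMA. The WT groups overlapped and the STINGgt/gt groups did not, with all 6 STINGgt/gt libraries above all 6 WT libraries. CMA changed it on the log2 scale by 0.02 in WT (adjusted p = 0.637, edgeR; 95% interval -0.06 to 0.10) and 0.09 in STINGgt/gt (adjusted p = 0.357, edgeR), and these did not differ by the test of the difference (-0.06, adjusted p = 0.325, edgeR; 95% interval -0.18 to 0.05).

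Of the de novo methyltransferases, Dnmt3a (ENSMUSG00000020661, chr12:3806007-3914443, plus strand) was the more abundant per length (9.90 RPKM against 3.20 RPKM for Dnmt3b in WT with DMSO). Its level was 174, 146 and 174 CPM in WT with DMSO and 168, 169 and 169 CPM with CMA. Without functional STING it was 230, 243 and 246 CPM with DMSO and 264, 260 and 270 CPM with CMA. WT DMSO replicate 2 was the lowest library, and the WT groups overlapped, while those of STINGgt/gt did not. The log2 fold change was 0.03 in WT (adjusted p = 0.619, edgeR; 95% interval -0.09 to 0.15), with 0.14 in STINGgt/gt (adjusted p = 0.279, edgeR) and a difference of -0.11 (adjusted p = 0.252, edgeR). Dnmt3a passed the test in STINGgt/gt when only the STINGgt/gt groups were fitted (0.14, adjusted p = 0.0421, edgeR) and when WT DMSO replicate 2 was left out (0.14, adjusted p = 0.0388, edgeR).

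Dnmt3b (ENSMUSG00000027478, chr2:153649450-153687730, plus strand) encodes the other de novo methyltransferase. It had 15.8, 17.2 and 16.0 CPM in WT with DMSO and 8.93, 9.38 and 8.48 CPM with CMA. The STINGgt/gt libraries showed 25.4, 25.1 and 25.2 CPM with DMSO and 27.9, 27.3 and 29.5 CPM with CMA. The order of the 4 groups held without any overlap, from WT with CMA up to STINGgt/gt with CMA. Its log2 fold change of -0.87 in WT (SE 0.0631, adjusted p = 2.89e-09, edgeR) stood against 0.16 in STINGgt/gt (adjusted p = 0.181, edgeR). The effect of CMA was lower in WT by 1.03 on the log2 scale; that difference was -1.03 with a 95% interval of -1.20 to -0.85 (adjusted p = 2.16e-08, edgeR).

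Tet1 (ENSMUSG00000047146, chr10:62804570-62899118, minus strand) encodes a TET dioxygenase that carries its own CXXC domain, a binding module for unmethylated CpG. It had 19.6, 14.1 and 20.9 CPM in WT with DMSO and 4.32, 5.77 and 5.55 CPM with CMA, from 155 to 187 counts in each CMA library. The STINGgt/gt libraries had 18.1, 21.6 and 21.9 CPM with DMSO and 20.5, 21.7 and 21.2 CPM with CMA. The WT CMA libraries were well below the other 9, which overlapped with each other. The log2 fold change was -1.82 in WT (SE 0.140, adjusted p = 6.14e-09, edgeR), and 2.33% of all genes tested had a change as low or lower. In STINGgt/gt T cells it was 0.05 (adjusted p = 0.906, edgeR; 95% interval -0.20 to 0.29). The test of the difference gave -1.86 (adjusted p = 2.27e-07, edgeR). Over the alternative analyses the WT value ran from -1.97 to -1.68, and the call held in each of them.

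Tet2 (ENSMUSG00000040943, chr3:133463679-133544390, minus strand) encodes a TET enzyme that lacks a CXXC domain. It stood at 66.9, 55.1 and 62.7 CPM in WT with DMSO and at 80.3, 77.3 and 83.2 CPM with CMA. Levels in STINGgt/gt were 56.7, 61.8 and 65.5 CPM with DMSO and 57.4, 61.2 and 61.2 CPM with CMA. The WT CMA libraries were the highest of the 12 and the other 3 groups overlapped. The log2 fold change was 0.38 in WT (SE 0.0657, adjusted p = 6.84e-05, edgeR), with -0.03 in STINGgt/gt (adjusted p = 0.886, edgeR; 95% interval -0.17 to 0.11). The difference was 0.41 (adjusted p = 0.00115, edgeR). Tet1 and Tet2 thus moved in opposite directions in WT T cells.

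Tet3 (ENSMUSG00000034832, chr6:83362373-83441678, minus strand) encodes the third TET dioxygenase. Its level was 164, 129 and 174 CPM in WT with DMSO and 146, 144 and 147 CPM with CMA. The STINGgt/gt libraries had 191, 205 and 207 CPM with DMSO and 217, 217 and 220 CPM with CMA. The 3 WT DMSO libraries spanned the WT CMA libraries, so the WT groups overlapped, and those of STINGgt/gt did not. CMA gave -0.10 (log2) in WT (adjusted p = 0.268, edgeR), 0.12 in the mutant (adjusted p = 0.556, edgeR) and a difference of -0.22 (adjusted p = 0.0969, edgeR; 95% interval -0.45 to 0.01). With the replicate block the difference passed the test (-0.21, adjusted p = 0.0477, edgeR). The WT result rested on single libraries, as it was -0.22 and passed the test without WT DMSO replicate 2 (adjusted p = 0.000232, edgeR) and was 0.0038 without WT DMSO replicate 3.

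Tdg (ENSMUSG00000034674, chr10:82629828-82650799, plus strand), the glycosylase gene, varied least of the 8. It had 49.8, 44.1 and 53.5 CPM in WT with DMSO and 51.6, 51.4 and 52.9 CPM with CMA. Levels in STINGgt/gt were 52.8, 53.7 and 53.2 CPM with DMSO and 51.3, 56.5 and 53.5 CPM with CMA. The groups of each genotype overlapped. The log2 fold change was 0.08 in WT (adjusted p = 0.255, edgeR; 95% interval -0.05 to 0.20) and 0.02 in STINGgt/gt (adjusted p = 0.946, edgeR; 95% interval -0.11 to 0.14). Without WT DMSO replicate 3, Tdg passed the test in WT with a value of 0.16 (adjusted p = 0.0158, edgeR).

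In 4 of the 8 genes (Uhrf1, Dnmt3a, Dnmt3b and Tet3) the STINGgt/gt CMA libraries did not overlap with those with DMSO, and each of the 4 was higher with CMA, by 0.09 to 0.16 on the log2 scale. Of all genes tested, 23.1% had non-overlapping groups in that comparison. At an unadjusted p under 0.05, edgeR called 3 of the 8 (Uhrf1, Dnmt3a and Dnmt3b), against 1790 of 13811 genes. Counted by edgeR's adjusted p, the number was 0 of 8, and DESeq2 and limma-voom gave 0 as well.

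By the test of the difference, 4 of the 8 genes responded unequally to CMA in the 2 genotypes, with Tet2 higher and Tet1, Dnmt3b and Dnmt1 lower in WT, where 58.8% of all genes differed, 27.2% higher and 31.6% lower. The median of this difference was -0.16 (log2) over the 8 genes and -0.03 over all genes. Without WT DMSO replicate 2, 5 of the 8 were lower by this test, as Dnmt3a (-0.19, adjusted p = 0.00718, edgeR) and Tet3 (-0.34, adjusted p = 6.44e-05, edgeR) were called as well. Tet3 was also called with no filter (adjusted p = 0.0255, edgeR).

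**Figure D2:**
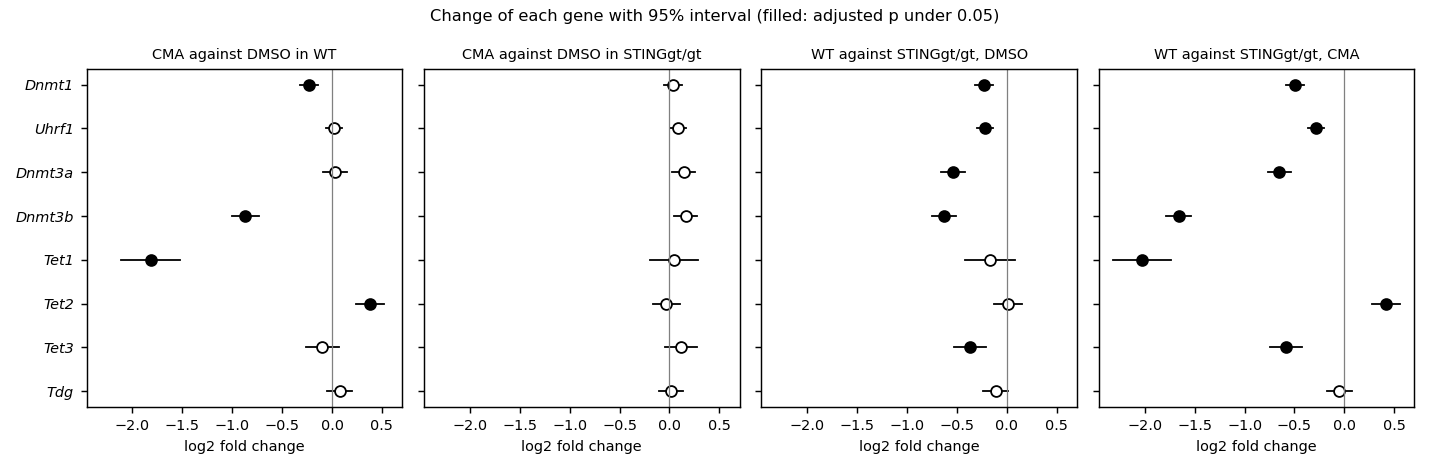
Log2 fold change (point) and 95% interval (line) of each gene in 4 comparisons; filled points passed an adjusted p of 0.05 in edgeR's test. With CMA in WT, Tet1 (-1.82) and Dnmt3b (-0.87) lie furthest below 0, and no point is filled for STINGgt/gt.

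The genotypes already differed with DMSO. Here 5 of the 8 genes were lower in WT than in STINGgt/gt T cells and none was higher, where 19.8% of all genes were lower and 22.9% higher in WT. Dnmt3b differed by -0.63 on the log2 scale (SE 0.0564, adjusted p = 1.79e-07, edgeR) and Dnmt3a by -0.54 (SE 0.0565, adjusted p = 1.05e-06, edgeR). Tet3 differed by -0.37 (adjusted p = 0.00103), Dnmt1 by -0.23 (adjusted p = 0.000409) and Uhrf1 by -0.22 (adjusted p = 0.000236), all by edgeR. Tet1 (-0.17, 95% interval -0.42 to 0.08), Tet2 (0.01, -0.13 to 0.15) and Tdg (-0.11, -0.24 to 0.01) did not pass the test, though Tet1 (-0.29, adjusted p = 0.0403, edgeR) and Tdg (-0.19, adjusted p = 0.00984, edgeR) did without WT DMSO replicate 3. The groups of the 5 called genes did not overlap, which was so for 47.9% of all genes. The B cell and myeloid markers tested, 7 of each, and 7 of the 8 CD8 and NK markers were higher in WT in this comparison, and their part in these differences was not tested.

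With CMA, 6 of the 8 were lower and 1 higher in WT than in STINGgt/gt T cells, where 73.5% of all genes were called, 36.5% lower and 37.0% higher. The groups of these 7 genes did not overlap, which was so for 78.9% of all genes. In this comparison 7 of 7 B cell markers and 5 of 7 myeloid markers were higher in WT, the CD8 and NK markers were 5 higher and 3 lower, and 5 of 10 T cell markers were lower, and their part was not tested. Tet1 was 4.08-fold lower (log2 difference -2.03, adjusted p = 8.09e-10, edgeR) and Dnmt3b 3.16-fold lower (-1.66, adjusted p = 2.60e-13, edgeR). Dnmt3a (-0.65), Tet3 (-0.58), Dnmt1 (-0.49) and Uhrf1 (-0.29) were lower by smaller amounts, and Tet2 was higher by 0.42 (adjusted p of 2.11e-05 or less for each, edgeR). Tdg did not pass the test (-0.05, adjusted p = 0.454, edgeR; 95% interval -0.18 to 0.07). Each genotype comparison uses the same libraries as the comparisons with CMA, so the values are given side by side and are not independent of each other. The genotype difference of Tet1 was -0.17 with DMSO and -2.03 with CMA, and its change between the treatments is the same contrast as the difference of the CMA effect above.

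Levels were compared between genes per length, as RPKM over the union of annotated exons. In WT with DMSO, Dnmt1 (82.2 ± 4.80 RPKM, SD, n = 3) and Uhrf1 (75.2 ± 1.28) were above the other 6, without overlap. Dnmt3a (9.90 ± 0.957), Tet3 (9.32 ± 1.42) and Tdg (9.14 ± 0.883) followed, and neighbours among these overlapped. Tet2 (3.65 ± 0.354) and Dnmt3b (3.20 ± 0.147) overlapped as well, and Tet1 (1.18 ± 0.234) was the lowest. Over the longest transcript the order of the means was the same, with other values: 103 RPKM for Dnmt1, 89.3 for Uhrf1, 17.0 for Dnmt3a, 14.3 for Tet3, 6.71 for Tet2, 3.78 for Dnmt3b and 1.27 for Tet1, with Tdg between Tet3 and Tet2. With CMA in WT the order became Uhrf1 (76.3 RPKM), Dnmt1 (70.2), Dnmt3a (10.1), Tdg (9.67), Tet3 (8.71), Tet2 (4.76), Dnmt3b (1.75) and Tet1 (0.337), with no overlap between neighbours. Uhrf1 thus stood above Dnmt1 in WT with CMA and below it in the other 3 groups. In STINGgt/gt T cells Dnmt3b stood above Tet2 with either treatment (4.94 against 3.63 RPKM with DMSO, 5.53 against 3.55 with CMA). That order rests on the length used. Over the longest transcript Dnmt3b and Tet2 stood at 5.84 and 6.68 RPKM with DMSO, the opposite order, and both at 6.53 RPKM with CMA.

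Within the TET family, Tet1 made up less and Tet2 more of the summed level in the WT libraries with CMA than in those with DMSO, without overlap. The sum of the 3 TET genes in WT was 15.1, 11.9 and 15.5 RPKM with DMSO and 13.8, 13.6 and 14.1 RPKM with CMA. These overlapped through WT DMSO replicate 2, and the other DMSO sums were above the 3 CMA sums. In STINGgt/gt the sums were 15.9, 17.3 and 17.7 RPKM with DMSO and 17.8 to 18.2 RPKM with CMA, without overlap. In WT, Tet1 made up 8.27% ± 0.553 of that sum with DMSO and 2.44% ± 0.368 with CMA. Tet2 made up 25.9% ± 1.76 and 34.4% ± 0.699. Tet3, the main TET transcript, had 65.8% ± 1.27 and 63.1% ± 0.626. In STINGgt/gt T cells the shares with DMSO and CMA were 7.81% and 7.61% for Tet1, 21.4% and 19.8% for Tet2, and 70.8% and 72.6% for Tet3. Of the summed Dnmt3a and Dnmt3b, Dnmt3b in WT had 24.5% ± 2.73 with DMSO and 14.7% ± 0.620 with CMA. Its share in STINGgt/gt was 25.6% ± 0.789 and 25.8% ± 0.387. That sum was 13.1 and 11.9 RPKM in WT, and 19.3 and 21.4 RPKM in STINGgt/gt. The shares are given without a test and rest on the exon-union length.

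**Figure D3:**
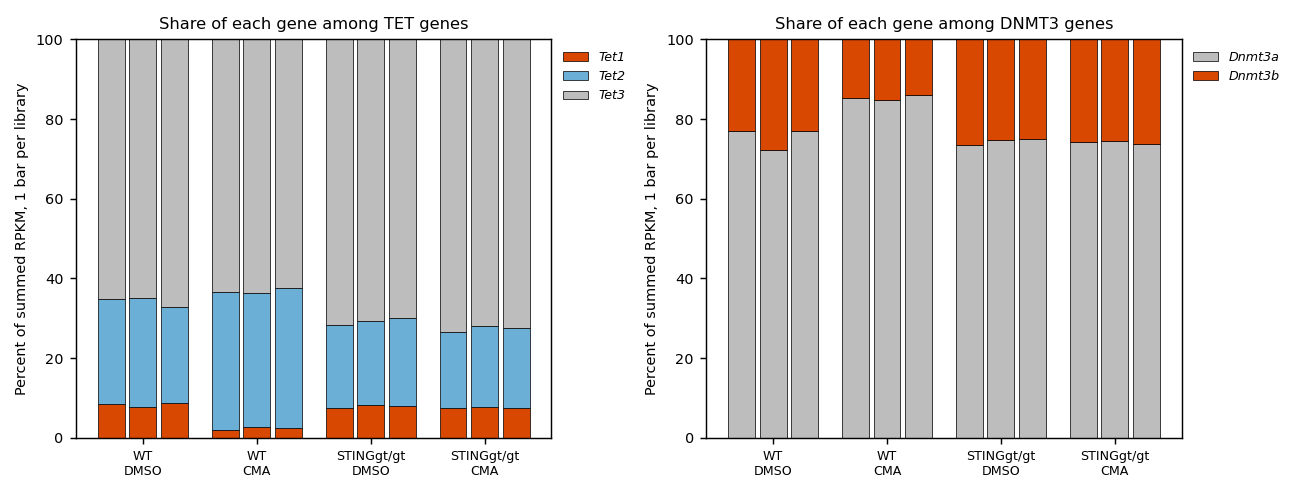
Percent of the summed RPKM taken by each TET gene (left) and each DNMT3 gene (right), 1 stacked bar per library, 3 libraries a group. The Tet1 and Dnmt3b segments are smaller in the 3 WT CMA libraries than in the other 9, and Tet2 takes its largest share there.

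Dnmt3l, which encodes a catalytically inactive partner of the DNMT3 enzymes, is not among the 8 and was singled out after its values were seen. It had 0, 1 and 0 counts in WT with DMSO and 99, 87 and 88 counts with CMA, or 2.68 to 2.77 CPM. The STINGgt/gt libraries had 1, 0 and 2 counts with DMSO and 2, 1 and 3 with CMA. In WT the summed counts of 274 and 1 gave a ratio of 269 (95% exact interval 47.9 to 10677, counting error only). Dnmt3l passed the filter only through the WT CMA libraries and was picked for these counts, so the ratio describes them and is no test. Dnmt3l overlaps Aire, a gene on the opposite strand, and Aire itself went from 3, 4 and 1 counts in WT with DMSO to 892, 792 and 710 with CMA. The strand setting of the counting is not given in the sources used here, and the part of reads from Aire in the Dnmt3l counts was not tested.

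Of 63 further genes that work with these enzymes, 57 were tested, and CMA raised 18 (31.6%) and lowered 27 (47.4%) of them in WT, where 33.0% of all genes rose and 37.4% fell. Of the 57, Dnmt3l alone passed the filter only through the WT CMA libraries, and without it, a choice made after its values were seen, 17 of 56 rose. The median log2 fold change was -0.11 with or without Dnmt3l, against -0.04 over all genes. In STINGgt/gt none rose and 1 fell, Gadd45g (-0.34, adjusted p = 0.0214, edgeR). That call was lost when any single STINGgt/gt DMSO library, or STINGgt/gt CMA replicate 2 or 3, was left out. It was also lost with the block by library name, at an adjusted p under 0.01 and with a 2-fold minimum. For 39 of the 57 the response to CMA was unequal between WT and STINGgt/gt, 14 (24.6%) more positive and 25 (43.9%) more negative in WT, where 27.2% and 31.6% of all genes were. Without Dnmt3l, 13 of 56 were more positive. The 2 genes of each list with the highest CPM are named below, and others named were singled out after their values were seen. Kdm2b held that rank only through the WT CMA libraries, where it was high, so its naming was not independent of its change.

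Among 9 partners in maintenance and targeting, 3 rose and 4 fell in WT, and 2 of 8 rose without Dnmt3l. Trim28, a corepressor that keeps imprints and retroelements methylated, changed by -0.12 (adjusted p = 0.0136, edgeR) and Pcna, the replication clamp that tethers DNMT1, by -0.13 (adjusted p = 0.0189, edgeR). The Trim28 call was lost in 8 and the Pcna call in 10 of 24 alternative analyses, with adjusted p of up to 0.119 and 0.123. Of single libraries, leaving out WT CMA replicate 1 ended the Trim28 call (-0.10, adjusted p = 0.0656, edgeR), and leaving out WT DMSO replicate 3 (-0.076, adjusted p = 0.123, edgeR) or WT CMA replicate 2 (-0.098, adjusted p = 0.103, edgeR) ended that of Pcna. Cdca7, a partner of the remodeller HELLS, fell the most, from 104 ± 5.47 to 37.4 ± 1.71 CPM (SD, n = 3; log2 fold change -1.47, adjusted p = 2.94e-13, edgeR).

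Among 10 readers of methylated CpG and relatives in the MBD family, 6 rose and 3 fell. Mbd2, a reader, and Mbd3, its relative in the NuRD complex that does not select for methylated CpG, fell by 0.37 and 0.45 on the log2 scale (adjusted p of 6.93e-07 and 6.21e-07, edgeR).

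Among 5 CXXC proteins and TET partners, 3 rose and 1 fell. Kdm2b, a CXXC protein that brings Polycomb complexes to CpG islands, rose from 124 ± 7.53 to 409 ± 3.91 CPM in WT (SD, n = 3; 1.73, adjusted p = 1.69e-14, edgeR), and it stood at 148 ± 5.52 and 167 ± 4.07 CPM in STINGgt/gt. Ogt, the O-GlcNAc transferase that binds TET2 and TET3, rose by 0.76 (adjusted p = 1.35e-08, edgeR). Kdm2a of the same list, named after its values were seen, had 170 and 210 CPM in WT with DMSO and CMA. In STINGgt/gt it had 170 and 173 CPM, so it was above Kdm2b in each group but WT with CMA. Kdm2a rose by 0.30 in WT (adjusted p = 0.000226, edgeR).

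Among 19 genes of base excision and active demethylation, 3 rose and 10 fell. Lig1, a DNA ligase, rose by 0.12 (adjusted p = 0.0157, edgeR), a call lost without WT CMA replicate 3 (adjusted p = 0.0670, edgeR). Parp1, a sensor of strand breaks, fell by 0.44 (adjusted p = 8.21e-08, edgeR). Apex1, the endonuclease that acts after TDG, fell from 68.7 ± 1.94 to 38.4 ± 0.278 CPM (SD, n = 3; -0.84, adjusted p = 1.61e-10, edgeR). Gadd45b, a stress-induced gene linked to active demethylation, rose from 16.3 ± 1.29 to 101 ± 3.54 CPM (SD, n = 3; 2.64, adjusted p = 2.68e-15, edgeR). Its relatives in the list did not rise in WT. Gadd45g fell by 0.25 (adjusted p = 0.00142, edgeR), and Gadd45a did not pass the test (-0.23, adjusted p = 0.114, edgeR).

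Among 14 genes that supply or consume S-adenosylmethionine and 2-oxoglutarate, the methyl donor and the TET cosubstrate, 3 rose and 9 fell. Ogdh, a subunit of 2-oxoglutarate dehydrogenase, fell by 0.22 (adjusted p = 0.000136, edgeR) and Ahcyl1, a relative of S-adenosylhomocysteine hydrolase, by 0.29 (adjusted p = 8.49e-05, edgeR). Idh3a, a subunit of a mitochondrial enzyme that makes 2-oxoglutarate, fell by 1.02 (adjusted p = 1.76e-11, edgeR). Idh2, for another such enzyme of the same list, rose by 0.31 (adjusted p = 3.92e-06, edgeR).

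**Figure D4:**
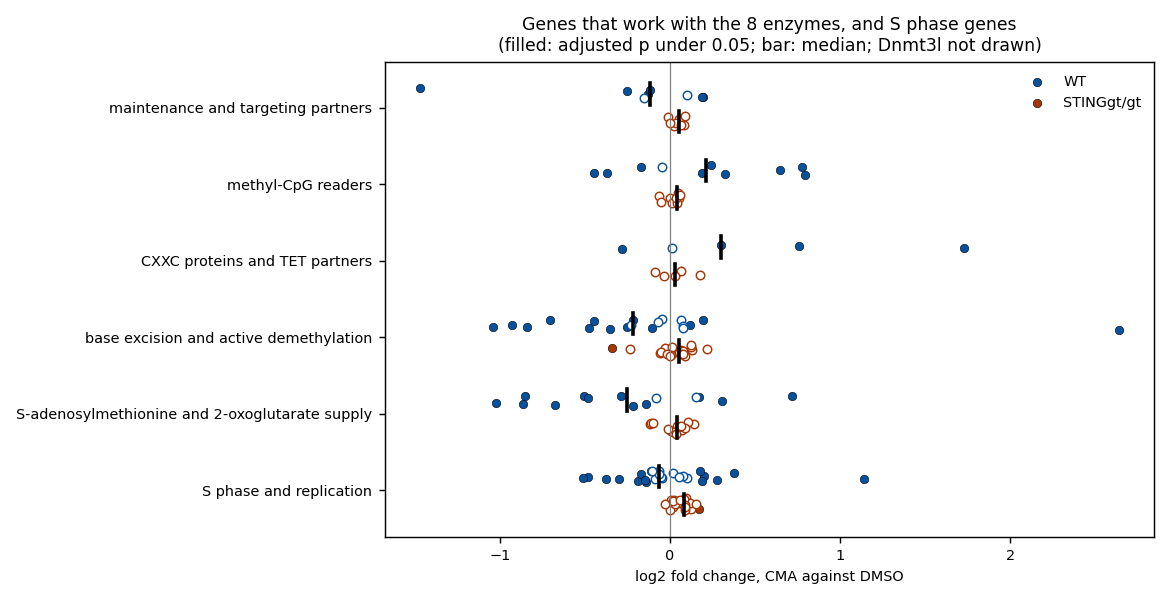
Log2 fold change with CMA against DMSO of the tested genes of 5 related lists and of S phase genes, in WT (blue) and STINGgt/gt (brown); filled points passed an adjusted p of 0.05 in edgeR's test, bars are the medians of the lists, and Dnmt3l lies outside the axis. The WT points spread to both sides of 0, with 18 genes of the 5 lists higher and 27 lower, while 1 of the STINGgt/gt points of these lists is filled.

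DNMT1 and UHRF1 are made mainly in dividing cells, so 25 genes of S phase and replication were read beside them. In WT with CMA 6 of these (24%) were higher and 9 (36%) lower than with DMSO, where 33.0% and 37.4% of all genes were, with a median log2 fold change of -0.06, and their summed level was 3742–3831 CPM against 3891–4216. The 9 changed in 5 of 24 alternative analyses, described at the end. By the test of the difference, 3 were more positive and 12 (48%) more negative in WT, with a median of -0.12. Of all genes 27.2% and 31.6% were. Each of these 2 counts changed in 7 of 23 alternatives. In STINGgt/gt with CMA 1 of the 25 was higher and 0 lower than with DMSO, with a median of 0.08. Of all genes 0.398% and 0.920% were. That count of 1 changed in 18 of 24 alternatives, to values from 0 to 2. The STINGgt/gt sums, given next, did not overlap between the treatments. Between WT and STINGgt/gt with DMSO 1 was higher and 18 (72%) were lower in WT, where 19.8% of all genes were lower, with a median of -0.18, and the STINGgt/gt sum was 4499–4514 CPM. With CMA 3 were higher and 19 (76%) lower in WT, where 36.5% of all genes were lower, with a median of -0.34, and the STINGgt/gt sum was 4703–4762 CPM. The counts of S phase genes higher in WT were small and moved with single libraries: with CMA from 3 to 1 without WT CMA replicate 1 or STINGgt/gt CMA replicate 1, and with DMSO from 1 to 0 without WT DMSO replicate 2 or STINGgt/gt DMSO replicate 3 and to 2 without STINGgt/gt DMSO replicate 1. Mcm6 and Mcm3, of the replicative helicase, had the highest CPM and changed by -0.09 (adjusted p = 0.108) and -0.11 (adjusted p = 0.0230) with CMA in WT (edgeR). The group means of Dnmt1 had the same order as this sum. Those of Uhrf1 did not, with 320 CPM with DMSO and 325 CPM with CMA in WT. The part of S phase in the differences of either gene was not tested. The CD8 and NK markers moved with CMA in WT as well, with 6 of 8 lower and none higher, as did the B cell markers, with 5 of 7 higher and none lower. Of the 7 myeloid markers tested 1 was higher and 3 were lower, and of the 10 T cell markers 4 were lower and 1 higher. Their part in the CMA results was not tested.

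Profiles over the 12 libraries were compared with those of 8765 other genes by the root mean square difference of centred log2 CPM. Dnmt1 was nearest to Mcm4 (0.0313) and Sf3b3 (0.0319), and Uhrf1 to Ipo9 (0.0284). Dnmt3a was nearest to Foxp1 (0.0444) and Pogk (0.0639), and Dnmt3b to Polr1b (0.0834) and Grwd1 (0.0909). Tet1, whose profile varied the most of the 8, was nearest to Cpm (0.146) and Nt5e (0.154). The nearest were Dip2b (0.0487) and Zkscan1 (0.0515) for Tet2, Acaca (0.0447) and 5830418K08Rik (0.0597) for Tet3, and Slk (0.0299) and Caprin1 (0.0317) for Tdg. These are descriptions of 12 libraries that fall into 4 groups.

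Annotated exons of Dnmt3a, Tet2 and Tdg share 133, 43 and 367 bases with genes on the opposite strand (Dnmt3aos, Gm42567 and Glt8d2), so their counts could include reads of these genes if strand was not used.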

How the data were processed

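RNA sequencing libraries of the 12 samples were made with a stranded mRNA kit. The authors deposited unnormalized read counts for 38924 Ensembl gene IDs. They also deposited log2 values of 11921 genes, each equal to log2 of the count plus 0.5, multiplied by a library factor. The submitters' processing notes name GRCm38, cutadapt 1.3, STAR 2.4.0f1, HTSeq 0.6.1 and RSEM 1.2.16; the strand setting is not given in the sources used here. Alignments that were not unique (27.8% to 30.3% of entries) and other lines that name no gene were left out of library sizes and tests.

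Counts were fitted with edgeR 4.0.16 (R 4.3.3; TMM, filterByExpr, 13811 genes, 4 groups in 1 quasi-likelihood model without a block), with Benjamini-Hochberg adjustment over all genes and a threshold of 0.05. CPM used TMM-adjusted library sizes. RPKM used the union of exons. The model was tested on simulated data, but the outcome is not reported here and no result above rests on it. Alternatives were other scalings, DESeq2 1.42.0, limma-voom (limma 3.58.1), limma on the deposited log2 table, other filters and thresholds, only the 2 groups compared, replicate blocks and leaving out each library. Named beside the 8 genes are the 2 most abundant of each related list and the 2 genes with the nearest profile (CPM of at least 10), and further genes are marked as chosen after their values were seen; 1 gene under this rule is not reported here. The members and lists were chosen with earlier results of these data known. The precision is limited by 3 libraries a group.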

Additional observations from a re-analysis of the deposited data

Results flagged for a closer look

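For 4 of the 8 enzymes edgeR's test of the difference (log2, the CMA effect in WT minus that in STINGgt/gt) passed the threshold. The differences were -0.26 for Dnmt1 (adjusted p = 0.00147, edgeR), -1.03 for Dnmt3b (adjusted p = 2.16e-08, edgeR), -1.86 for Tet1 (adjusted p = 2.27e-07, edgeR) and 0.41 for Tet2 (adjusted p = 0.00115, edgeR). Among the related genes named above the same test gave -0.21 for Trim28, -0.22 for Pcna, -0.30 for Mbd2, -0.45 for Mbd3, -0.51 for Parp1, -0.25 for Ogdh and -0.33 for Ahcyl1, and 0.79 for Ogt and 1.55 for Kdm2b (adjusted p of 0.00983 or less for each, edgeR). Lig1, named by the same rule, did not pass it (0.11, adjusted p = 0.104, edgeR), though it did in 4 of 23 alternative analyses. One of these left out WT DMSO replicate 3 (0.16, adjusted p = 0.0130, edgeR). Of all genes tested, 58.8% differed between the genotypes in their response to CMA.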

How the results depend on the processing

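The calls of Tet1, Dnmt3b, Dnmt1 and Tet2 in WT held in the alternatives run, apart from a 2-fold minimum, under which Tet1 alone of them was called, as follows from its construction. With it, 0 of the 8 enzymes were higher and 1 lower with CMA in WT, 0 were higher for the difference of the effect, 0 were lower in WT with DMSO, and 0 were higher and 2 lower in WT with CMA. Of the related genes, 3 were then higher and 3 lower in WT, 0 lower in STINGgt/gt, 3 and 3 for the difference, 2 and 0 between genotypes with DMSO, and 6 and 7 under CMA. For STINGgt/gt, 1 enzyme (Dnmt3a) was higher with only the 2 groups compared. There 1 related gene was higher with DESeq2, without a filter, with only the 2 groups compared and with the replicate block, and 0 were lower at an adjusted p under 0.01. With 1 library left out, enzymes called higher ran from 1 to 2 in WT (2 without WT DMSO replicate 3) and from 0 to 1 in STINGgt/gt (1 without WT DMSO replicate 2), and those lower for the difference from 3 to 5 (5 without WT DMSO replicate 2). Of related genes in STINGgt/gt, 0 to 1 were higher (1 without WT DMSO replicate 2 or 3) and 0 to 1 lower. The 1 lower gene, Gadd45g, was lost without STINGgt/gt DMSO replicate 1, 2 or 3 and without STINGgt/gt CMA replicate 2 or 3. Of the S phase genes, the 9 lower with CMA in WT became 5 without a filter, with 10 counts needed in every library, with only the 2 groups compared and at an adjusted p under 0.01. Apart from the thresholds, the cause was not tested.

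Same-numbered libraries were not taken as pairs, since 1 of the 6 correlations of their deviations was under 0.1 and no label says what a number marks. In 5 of the 6 pairs the library names begin with the same digit, whose meaning is not given in the sources used here. For WT the values were 0.0447, 0.211 and 0.256. The STINGgt/gt pairs gave 0.110, 0.127 and 0.139. Each DMSO library correlated best with its own number, except WT DMSO replicate 1, which did with CMA replicate 2 (0.0942), so a weak pairing is possible. Under the replicate block 1 enzyme was higher and 4 were lower for the difference. Blocking by the first digit of the library name gave 1 and 3, and in STINGgt/gt 0 related genes lower. A block within genotype leaves no genotype comparison to fit, and for the difference no fit on 2 groups exists.

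Values that did not pass the test also changed sign (log2). With 1 library left out, the CMA effect in WT ran from -0.045 (without WT DMSO replicate 2) to 0.089 for Dnmt3a, and from -0.22 to 0.0038 (without WT DMSO replicate 3) for Tet3. In STINGgt/gt it ran from -0.042 (without DMSO replicate 1) to 0.092 for Tet1, from -0.086 to 0.017 (without DMSO replicate 3) for Tet2 and from -0.024 (without CMA replicate 2) to 0.048 for Tdg. The difference for Tdg ran from -0.010 (without WT DMSO replicate 2) to 0.15. Tet2 between genotypes with DMSO ran from -0.059 (without WT DMSO replicate 1) to 0.079, and was -0.013 without WT DMSO replicate 3 and -0.054 without STINGgt/gt DMSO replicate 1. It was -0.010 with RLE size factors, -0.019 with library-size scaling, -0.010 with DESeq2, -0.00301 on the authors' log2 table, -0.00725 when no filter was used and -0.014 when 10 counts were needed in every library. Uhrf1 in WT was -0.0035 with library-size scaling, and Tdg in STINGgt/gt -0.017 with the block by library name.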
